A study of Mus musculus with 14 samples.

Results

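Xbp1 and 9 chaperones and folding factors of the endoplasmic reticulum (Hspa5, Hsp90b1, Manf, Dnajb11, Pdia4, Pdia6, Calr, Sdf2l1 and Herpud1) were followed through RNA-seq libraries of a mouse leukemia line. The 10 genes were taken by symbol from a count table of 53465 genes, and all 10 were among the 10791 genes that passed the filter on low counts. The line, KL974, is labelled as acute myeloid leukemia with the genotype Trp53R172H;shMll3;shNf1, which every group carried, and it grew in serum with IL3, IL6 and SCF. Each culture held a lentiviral short hairpin that doxycycline induces together with blue fluorescent protein (BFP), so BFP positive cells had the hairpin induced and BFP negative cells did not. The 14 libraries form 7 groups of 2. They are control hairpin cells at day 0 (untreated, no sort named), control BFP positive and control BFP negative cells at day 2, BFP positive cells with the Ogdh hairpin shOgdh346 at day 4, BFP positive cells with the Ogdh hairpin shOgdh2081 at day 4, and control BFP positive and control BFP negative cells at day 4. Ogdh encodes a subunit of the oxoglutarate dehydrogenase complex of the tricarboxylic acid cycle. All groups come from 1 line, and whether replicates were grown apart is not labelled, so each p-value reflects the spread of these libraries only, which may be technical.

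Secreted and membrane proteins fold in the endoplasmic reticulum, where Hspa5 (also called BiP) binds unfolded chains. When unfolded proteins build up, the sensors IRE1 (gene Ern1), ATF6 and PERK (gene Eif2ak3) start the unfolded protein response. IRE1 cuts a short intron out of Xbp1 mRNA, the spliced mRNA encodes the active XBP1 transcription factor, and XBP1 and cleaved ATF6 raise chaperone, disulfide-forming and degradation genes, while PERK acts through ATF4. In the blood lineages XBP1 is best known for the secretory capacity of plasma cells.

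Among the sequences that tie these genes together is the Xbp1 stretch that IRE1 removes, shown because the deposited counts are per gene and cannot tell the spliced from the unspliced mRNA. It was found in 3 of the 4 annotated Xbp1 transcripts, within an exon on the plus strand at chr11:5524279-5524304 (GRCm38), and is 26 bases long. Capitals mark the removed bases.
Xbp1: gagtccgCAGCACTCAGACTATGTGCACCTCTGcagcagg

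Promoter windows of 250 bases before to 50 bases after the start of transcription were read from RefSeq (GRCm38.p6). Of the 10 genes, 9 matched by symbol, all but Manf. Both strands were searched for the endoplasmic reticulum stress elements ERSE (CCAAT, 9 bases of any kind, then CCACG) and ERSE-II (ATTGG, 1 base of any kind, then CCACG), which ATF6 and XBP1 bind, for the core TGACGTGG of the unfolded protein response element, and for CCAAT alone, which is part of both stress elements. ERSE was in 4 of the 9 windows (Calr, Hsp90b1, Hspa5 and Pdia6), against 0.119% of all 32851 promoter windows. ERSE-II was in 2 of the 9 (Dnajb11 and Herpud1), against 0.0365% of all windows. The TGACGTGG core was in 0 of the 9 and in 0.676% of all windows, and CCAAT was in 8 of the 9 and in 37.4% of all windows. These matches describe the letters of the windows. Capitals below mark the bases that the motifs fix, read along the gene's strand.
Hspa5 (chr2:34771840-34772139, plus strand): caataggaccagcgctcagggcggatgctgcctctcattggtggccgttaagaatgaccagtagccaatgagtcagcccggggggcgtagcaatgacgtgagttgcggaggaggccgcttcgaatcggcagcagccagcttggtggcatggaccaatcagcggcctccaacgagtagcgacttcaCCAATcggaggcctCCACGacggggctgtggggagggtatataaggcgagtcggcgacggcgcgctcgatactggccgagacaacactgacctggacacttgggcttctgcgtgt
Hsp90b1 (chr10:86705395-86705694, minus strand): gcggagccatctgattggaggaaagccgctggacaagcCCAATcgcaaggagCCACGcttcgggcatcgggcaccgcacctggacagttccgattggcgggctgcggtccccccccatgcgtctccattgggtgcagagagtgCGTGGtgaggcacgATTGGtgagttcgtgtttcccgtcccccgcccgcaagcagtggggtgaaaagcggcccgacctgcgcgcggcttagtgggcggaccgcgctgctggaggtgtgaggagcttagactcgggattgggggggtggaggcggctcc
Dnajb11 (chr16:22857595-22857894, plus strand): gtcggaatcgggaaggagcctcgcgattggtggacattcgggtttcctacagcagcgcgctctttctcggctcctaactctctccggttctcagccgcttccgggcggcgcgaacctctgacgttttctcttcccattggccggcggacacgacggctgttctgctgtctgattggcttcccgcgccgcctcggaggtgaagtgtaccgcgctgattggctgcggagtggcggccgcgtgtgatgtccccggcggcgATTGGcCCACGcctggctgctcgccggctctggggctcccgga
The Hspa5 match began 65 bases before the start. Hsp90b1 had 2 matches that began 212 and 107 bases before it, the nearer on the opposite strand, and that of Dnajb11 began 7 bases past the start. For the other 3 windows the matches are given alone.
Calr (chr8:84847075-84847093, minus strand, motif on the opposite strand): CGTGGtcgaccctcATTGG
Pdia6 (chr12:17266491-17266509, plus strand): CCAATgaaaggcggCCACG
Herpud1 (chr8:94386377-94386387, plus strand): ATTGGgCCACG

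Library totals ran from 913482 to 10271698 counts, and the shallowest were shOgdh2081 replicate 1 and shOgdh346 replicate 2 (1159021 counts). The lowest count of any of the 10 genes in any library was 15, for Sdf2l1. Unless given per length as RPKM, a level is in counts-per-million (CPM), taken over the tested genes after TMM scaling. Ogdh itself had 60.8 CPM in both shOgdh346 libraries and 51.5 and 52.3 CPM in the shOgdh2081 libraries, against 247 and 267 CPM in control BFP positive cells of day 4, a log2 fold change of -2.19 ± 0.09 (SE, edgeR adjusted p = 1.63e-30). Of the myeloid progenitor markers, Kit (464 to 578 CPM of the library total) and Myb (536 to 897 CPM) were high in all 14 libraries, while Elane and Cebpa had 0 counts and Mpo, Ctsg, Cd34 and Csf1r had at most 3 counts summed over all libraries. Erythroid markers (7 of 7 above a mean of 1 CPM) were present. Of 7 mast cell and basophil markers, 4 reached a mean of 1 CPM, and Hdc (299 to 348 CPM) was the highest. Of the others, Tpsb2 had 0 counts, Mcpt8 had 1 count over all libraries and Fcer1a had counts in 7 of the 14 libraries. Of 8 plasma and B cell markers, 0 reached a mean of 1 CPM, their sum was at most 0.997 CPM in any library, and Cd79b and Ms4a1 had 0 counts.

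Per length, Calr was the most abundant of the 10 transcripts, with a mean of 206 RPKM over the 14 libraries. It encodes calreticulin, a lectin chaperone that also stores calcium. Hspa5 followed at 112 RPKM and Hsp90b1, the HSP90 of this compartment (GRP94), at 57.0 RPKM. Dnajb11 (a cochaperone of Hspa5) averaged 40.5 RPKM and Pdia4 (a disulfide isomerase) 36.3 RPKM. Herpud1, a membrane protein of the degradation machinery, averaged 31.9 RPKM, Pdia6 (a disulfide isomerase) 27.2 RPKM and Manf (a secreted and luminal protein that binds Hspa5) 24.5 RPKM. Sdf2l1, which works with Dnajb11, averaged 20.3 RPKM, and Xbp1 was lowest at 15.3 RPKM. Across the study, the ratio of the highest to the lowest group mean was smallest for Pdia4 (1.18) and Hsp90b1 (1.19), came to 1.52 for Xbp1 and 1.53 for Herpud1, and was highest for Sdf2l1 (2.11).

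The gene spans in the table, on GRCm38, are chr11:5520659-5525893 for Xbp1, chr2:34771970-34777547 for Hspa5, chr10:86690209-86705509 for Hsp90b1, chr9:106838312-106891979 for Manf and chr16:22857845-22879634 for Dnajb11. Those of the others are chr6:47796141-47813430 for Pdia4, chr12:17266545-17284770 for Pdia6, chr8:84841850-84846934 for Calr, chr16:17130138-17132383 for Sdf2l1 and chr8:94386438-94395377 for Herpud1. Manf shares 146 exon bases with Dcaf1 on the opposite strand and 14 with Rbm15b on its own, and both had more counts than Manf (6336 and 4517 over all libraries, against 4107 for Manf). Hsp90b1 shares 415 exon bases with 1810014B01Rik on the opposite strand, which had 246 counts over all libraries. Manf also shares 166 exon bases with 4930524O07Rik on the opposite strand, which had 40 counts. A strand setting for the counting was not given in the sources used here, so values of Manf and Hsp90b1 carry that uncertainty.

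**Figure D1:**
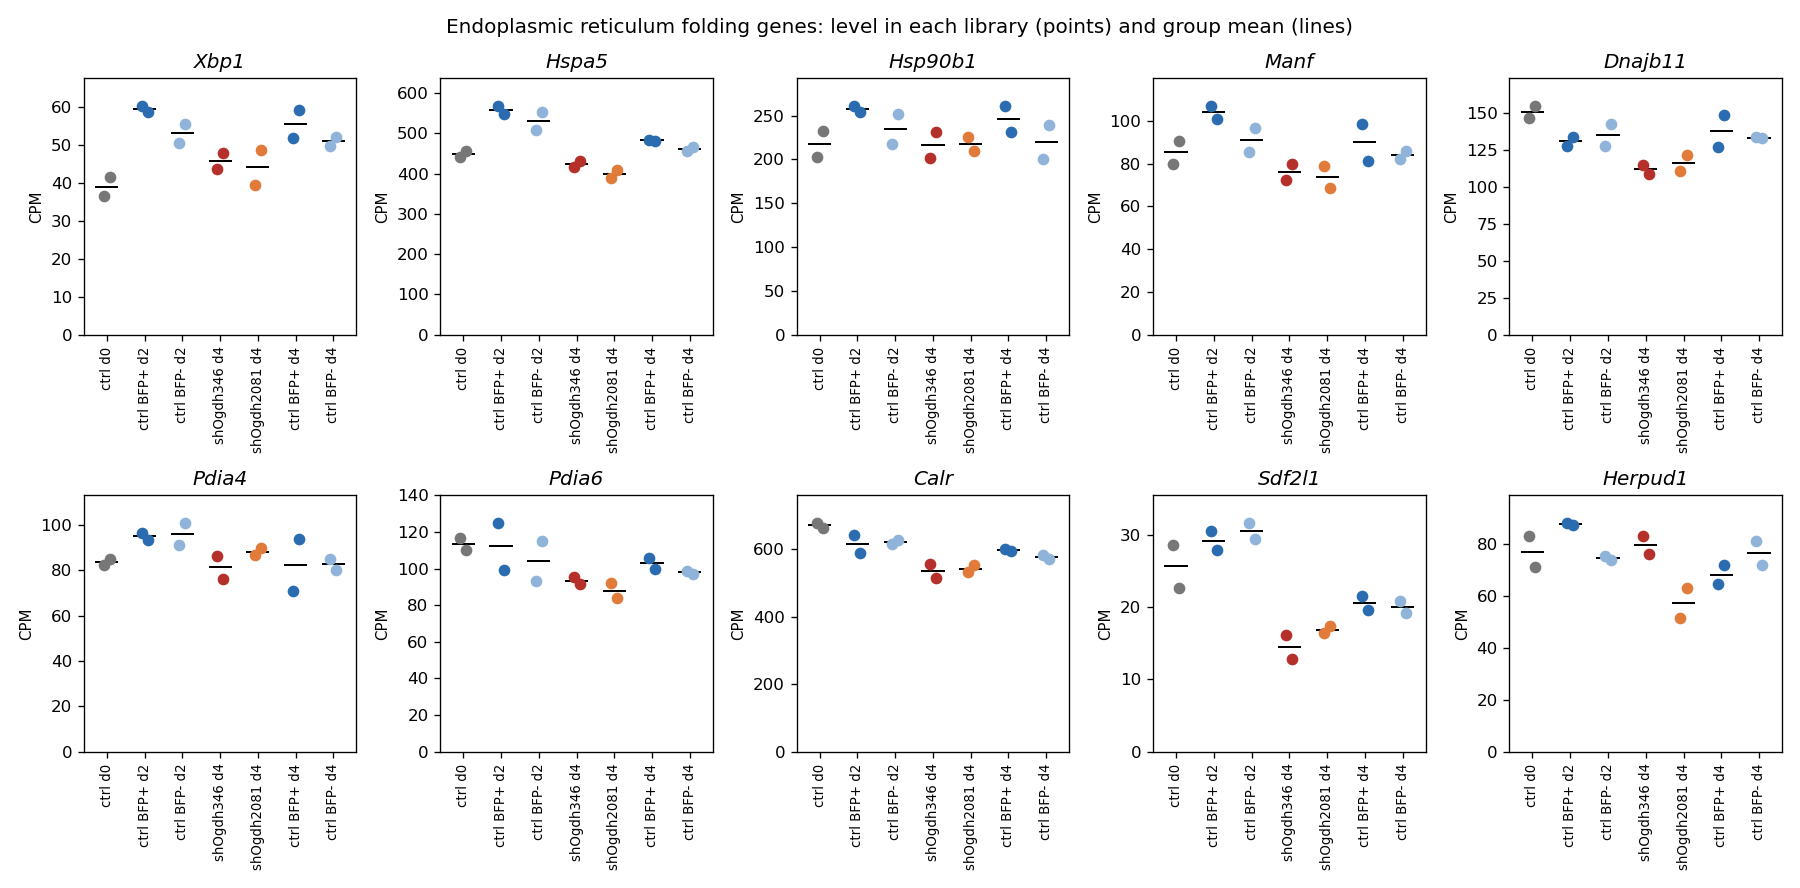
Level of each of the 10 genes in CPM (y axis, starting at 0) in every library (points) of the 7 groups (x axis), with the group mean as a line. Hspa5 and Xbp1 are lowest at day 0 and with the Ogdh hairpins, and Sdf2l1 steps down between the day 2 and day 4 control libraries and lies lowest with the Ogdh hairpins.

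The Ogdh hairpins at day 4 were set against control BFP positive cells of the same day to ask what loss of Ogdh did to these genes. Hspa5, Manf and Dnajb11 fell, and 0 of the 10 genes rose. Hspa5 fell by 14.7%, Manf fell by 20.2% and Dnajb11 fell by 15.5%. The fitted fold was below 1 for 8 of the 10 genes, with a median log2 fold change of -0.22, against 0.00 over all tested genes. Of all tested genes, 16.1% were called in either direction and 8.36% were called lower.

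Hspa5 had 416 and 432 CPM in shOgdh346 cells, 390 and 408 CPM in shOgdh2081 cells, against 484 and 482 CPM in control BFP positive and 457 and 466 CPM in control BFP negative cells. All 4 Ogdh hairpin libraries lay below all 4 day 4 control libraries, and also below both day 0 libraries (441 and 455 CPM). The log2 fold change against control BFP positive cells was -0.23 ± 0.07 (edgeR adjusted p = 0.0115).

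Manf had 72.3 and 79.6 CPM in shOgdh346 cells, 79.0 and 68.7 CPM in shOgdh2081 cells, against 98.7 and 81.1 CPM in control BFP positive and 82.1 and 85.9 CPM in control BFP negative cells. The groups did not overlap, and control BFP positive replicate 2 lay nearest to the Ogdh hairpin libraries. The log2 fold change was -0.33 ± 0.10 (edgeR adjusted p = 0.0206).

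Dnajb11 had 114.6 and 108.7 CPM in shOgdh346 cells, 110.8 and 121.6 CPM in shOgdh2081 cells, against 127.2 and 149.2 CPM in control BFP positive and 133.9 and 133.2 CPM in control BFP negative cells. Its Ogdh hairpin libraries were the lowest 4 of the series, and its log2 fold change was -0.24 ± 0.09 (edgeR adjusted p = 0.0463).

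The other 7 genes did not pass the test. Sdf2l1, the gene with the widest range, had 16.1 and 12.8 CPM in shOgdh346 cells, 16.4 and 17.4 CPM in shOgdh2081 cells, against 21.6 and 19.6 CPM in control BFP positive and 20.9 and 19.2 CPM in control BFP negative cells. Its 4 Ogdh hairpin libraries were the lowest of all 14, and its log2 fold change was -0.35 ± 0.18 (edgeR adjusted p = 0.184). Xbp1 had 43.7 and 47.9 CPM in shOgdh346 cells, 39.5 and 48.7 CPM in shOgdh2081 cells, against 51.7 and 59.2 CPM in control BFP positive cells. Those groups did not overlap, and the log2 fold change was -0.27 ± 0.12 (edgeR adjusted p = 0.118). Hsp90b1 (-0.21, adjusted p = 0.0617), Pdia6 (-0.20, adjusted p = 0.17) and Calr (-0.14, adjusted p = 0.124) had log2 fold changes of the same sign. Pdia4 and Herpud1 had log2 fold changes of 0.09 and 0.05, with adjusted p of 0.581 and 0.797.

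For 7 genes (Xbp1, Hspa5, Manf, Dnajb11, Pdia6, Calr and Sdf2l1), all 4 Ogdh hairpin libraries lay below both control BFP positive libraries, as they did for 19% of all tested genes, and 0 genes lay above them (17.1% of all tested genes). The same 7 lay below all 4 control libraries of day 4, which held for 13.3% of all tested genes. Summed over the 10 genes, the level was 1623 to 1684 CPM with the Ogdh hairpins, against 1881 and 1886 CPM in control BFP positive and 1792 and 1816 CPM in control BFP negative cells of day 4. Most of that sum was Calr and Hspa5, with means of 594 and 472 CPM over the 14 libraries. Pdia4 overlapped its controls: it had 86.5, 76.2, 86.6 and 90.1 CPM with the Ogdh hairpins, against 71.1 and 93.7 CPM in control BFP positive cells.

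Calls were lost when single libraries were left out, which leaves 1 library in a group. Each such run also called fewer of all tested genes than the fit with all libraries. Without control BFP positive replicate 1 all 3 calls were lost, with Hspa5 at -0.22 and Manf at -0.15. Without control BFP positive replicate 2 those of Hspa5 (-0.24) and Dnajb11 (-0.14) were lost. Without shOgdh346 replicate 1 all 3 calls were lost, with Hspa5 at -0.21. Manf was also lost without shOgdh2081 replicate 2 (-0.25). Dnajb11 was lost when any of the 6 libraries was left out, with log2 fold changes from -0.36 to -0.14. The estimate of Hspa5 thus moved little in these runs, and those of Manf and Dnajb11 moved more.

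**Figure D2:**
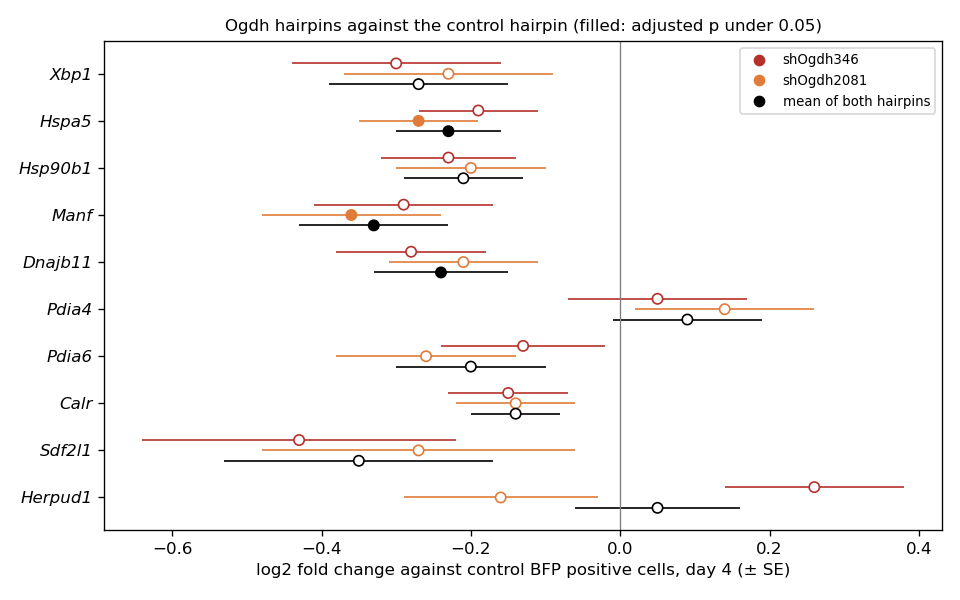
log2 fold change (x axis, bars ± SE) of each of the 10 genes (y axis) for shOgdh346, shOgdh2081 and the mean of both, against control BFP positive cells at day 4, with filled points where the edgeR adjusted p was under 0.05. For 8 of 10 genes all 3 estimates lie left of 0. The hairpins lie farthest apart for Herpud1, at 0.26 and -0.16.

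Each hairpin was then taken alone. With shOgdh2081, Hspa5 (-0.27 ± 0.08, edgeR adjusted p = 0.0176) and Manf (-0.36 ± 0.12, edgeR adjusted p = 0.0441) fell, 2 of 10 genes, where 11.6% of all tested genes were called. With shOgdh346, edgeR called 0 of 10 genes, where 11.2% of all tested genes were called. Of the 10, 7 had an unadjusted p under 0.05 with shOgdh346, as did 24.7% of all tested genes, and DESeq2 called 0 (406 of the 10791 tested genes). Of these 7, 6 had a fold below 1, and Herpud1 was above it (0.26 ± 0.12, adjusted p = 0.149). Hspa5 was at -0.19 ± 0.08 (adjusted p = 0.0944) and Manf at -0.29 ± 0.12 (adjusted p = 0.0918) with that hairpin. The shOgdh2081 calls were lost without either of its replicates (Hspa5 at -0.24 without replicate 1 and -0.32 without replicate 2) and without control BFP positive replicate 1 (Hspa5 at -0.26, Manf at -0.18), and that of Hspa5 also without control BFP positive replicate 2 (-0.28). Each of these runs also called fewer of all tested genes.

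Tested directly, shOgdh2081 against shOgdh346, edgeR called 0 of 10 genes, where 0.0834% of all tested genes were called. The log2 difference for Hspa5 was -0.07 ± 0.08. Of the 10, 1 had an unadjusted p under 0.05, as did 7.28% of all tested genes, and DESeq2 called 0 (1 of the 10791 tested genes). That gene was Herpud1, which had 51.5 and 63.1 CPM with shOgdh2081, against 83.2 and 76.2 CPM with shOgdh346. Its log2 difference was -0.43 ± 0.12 (edgeR adjusted p = 0.197), and the control BFP positive libraries, at 64.5 and 71.8 CPM, lay between the hairpins.

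Against control BFP negative cells of day 4, the Ogdh hairpins gave edgeR calls for 0 of 10 genes, where 20.8% of all tested genes were called. Of the 10, 3 had an unadjusted p under 0.05, as did 32.8% of all tested genes, and DESeq2 called 0 (762 of the 10791 tested genes). The fold was below 1 for 9 of 10 genes, and the median log2 fold change was -0.14, against 0.00 over all tested genes. Dnajb11 (-0.21, adjusted p = 0.0514), Hspa5 (-0.16, adjusted p = 0.0565) and Manf (-0.22, adjusted p = 0.0773) came nearest to the threshold.

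Marker lists of other cell types also differed between the hairpins and the control. The 7 erythroid markers summed to 846 to 970 CPM of the library total with the Ogdh hairpins, against 675 to 690 CPM in control BFP positive and 753 to 851 CPM in control BFP negative cells of day 4, whose range overlapped that of the hairpins. The mast cell and basophil list, of which 4 of 7 genes reached a mean of 1 CPM and Tpsb2 had 0 counts, summed to 448 to 479 CPM, against 380 to 382 CPM in BFP positive and 351 to 379 CPM in BFP negative control cells. The myeloid progenitor list, 4 of 11 above a mean of 1 CPM, summed to 1410 to 1450 CPM with the Ogdh hairpins. It summed to 1190 to 1200 CPM in BFP positive and 1170 to 1200 CPM in BFP negative control cells. Nearly all of that sum was Kit and Myb. The stromal list, 3 of 5, summed to 13.1 to 25.3 CPM with the Ogdh hairpins. It summed to 30.7 to 33.2 CPM in BFP positive and 25.7 to 29.7 CPM in BFP negative control cells. Most of it was Col1a2 (8.76 to 26.9 CPM over all libraries), while Col1a1 had 3 counts over all libraries. The T cell list stayed at or below 3.28 CPM in these libraries, with Cd3e and Cd8a at 0 counts. The part of these differences in the folding gene values was not tested. In such bulk libraries, fewer cells of a type and less RNA per cell cannot be told apart.

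The rest of the pathway was read from 6 lists, in the comparison of both Ogdh hairpins with control BFP positive cells. In that comparison 16.1% of all tested genes were called in either direction and 8.36% were called lower. Of 6 sensors and their proteases, 1 rose: Ern1 (IRE1), at 65.2, 60.8, 72.4 and 58.6 CPM with the Ogdh hairpins, against 43.2 and 58.8 CPM in control BFP positive cells. Its highest control library overlapped the lowest Ogdh hairpin library, and the log2 fold change of 0.34 ± 0.12 (edgeR adjusted p = 0.0496) came to 0.10 (adjusted p = 0.783) without control BFP positive replicate 1. Atf6 (0.06) and Eif2ak3 (0.15) did not pass. Of 8 tested PERK and ATF4 stress genes, edgeR called 0 in either direction, 1 had an unadjusted p under 0.05 and DESeq2 called 0, with a median log2 fold change of -0.01. Over the 10791 tested genes DESeq2 called 700. Against control BFP negative cells of day 4, 2 of the 8 rose with the Ogdh hairpins, where 20.8% of all tested genes were called. They were Ddit4 (0.59, adjusted p = 0.000159) and Sesn2 (0.43, adjusted p = 0.00423). Against control BFP positive cells they were at 0.23 (adjusted p = 0.271) and 0.35 (adjusted p = 0.0673). Both were named after their values were seen. The count against BFP negative cells was 1 with DESeq2, after thinning, without BFP negative replicate 2 and without shOgdh2081 replicate 2.

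Of 29 tested folding factors outside the 10, 4 fell and 1 rose, with a median log2 fold change of -0.07. Of all tested genes, 16.1% were called in either direction and 8.36% were called lower. Prdx4, a peroxiredoxin of the endoplasmic reticulum, had 73.5, 64.2, 70.2 and 66.7 CPM with the Ogdh hairpins, against 105 and 101 CPM in control BFP positive cells. All 10 control libraries of the series, at 90.8 to 114 CPM, lay above the Ogdh hairpin libraries, and the log2 fold change was -0.57 ± 0.10 (edgeR adjusted p = 2.64e-05). Mogs, the glucosidase that starts trimming of N-glycans, fell by 0.55 on the log2 scale (adjusted p = 7.45e-07). Cnpy2 was at -0.35 (adjusted p = 0.0319). Ppib, a prolyl isomerase, was at -0.46 over both hairpins (adjusted p = 0.0023), with 79.3 and 111 CPM in shOgdh346 and 51.5 and 69.7 CPM in shOgdh2081 cells, against 107 and 100 CPM in control BFP positive cells. Taken alone, shOgdh2081 passed for Ppib (-0.67, adjusted p = 0.000369) and shOgdh346, with 1 library above both controls, did not (-0.25, adjusted p = 0.212); the difference between the hairpins did not pass (-0.42, adjusted p = 0.291). The gene that rose was Ero1l, the oxidase that recharges disulfide isomerases (0.30, adjusted p = 0.0172), named after its value was seen. Without control BFP positive replicate 1, 2 fell and 0 rose.

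Of 25 genes of translocation and N-glycosylation, 7 fell and 2 rose, with a median log2 fold change of -0.13. Over all tested genes, 16.1% were called in either direction and 8.36% were called lower. Rpn1, a subunit of the oligosaccharyltransferase, had 355, 313, 344 and 346 CPM with the Ogdh hairpins, against 456 and 452 CPM in control BFP positive cells. Its 4 Ogdh hairpin libraries were the lowest of the series, and the log2 fold change was -0.41 ± 0.07 (edgeR adjusted p = 1.32e-05). Sec61b, a subunit of the translocation channel, was at -0.46 (adjusted p = 0.000394) and Ostc, of the oligosaccharyltransferase, at -0.32 (adjusted p = 0.00637), while Sec11c, of the signal peptidase, was at 0.29 (adjusted p = 0.014). Sec11c had 177 and 184 CPM in shOgdh346 and 166 and 168 CPM in shOgdh2081 cells, against 147 and 136 CPM in control BFP positive and 179 and 199 CPM in control BFP negative cells. It was above the BFP positive control only, with -0.14 (adjusted p = 0.185) against BFP negative cells, and it was also lower in control BFP positive than in control BFP negative cells of day 4 (-0.42, adjusted p = 0.021). The other gene that rose, Tram1, was at 0.27 (adjusted p = 0.01) against BFP positive cells. Against BFP negative cells it was at 0.42 (adjusted p = 1.18e-05), and it was named after its values were seen. Leaving out shOgdh346 replicate 1 left 3 that fell, leaving out either shOgdh2081 replicate left 4, and leaving out control BFP positive replicate 1 left 1.

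Of 22 tested degradation genes, 1 fell, the ATPase gene Vcp (-0.23, adjusted p = 0.0161), and 0 rose, with a median log2 fold change of 0.00. In the same comparison 8.36% of all tested genes were called lower. Of 8 chaperone paralogs of other compartments, 3 fell and 0 rose, with a median of -0.12. They were Trap1 (-0.38, adjusted p = 0.000196) and Hspa9 (-0.37, adjusted p = 8.27e-06), the mitochondrial relatives of Hsp90b1 and Hspa5, and the cytosolic Hspa4 (-0.20, adjusted p = 0.0296). Calls for Prdx4, Mogs, Rpn1, Trap1 and Hspa9 held under every alternative run. Apart from Tram1, whose alternative runs are not given here, each of the other genes named for that comparison lost its call under at least 1 of them. Against control BFP negative cells, Ern1 (0.27, adjusted p = 0.0505), Cnpy2 (-0.16, adjusted p = 0.269), Vcp (-0.12, adjusted p = 0.216) and Sec11c did not pass. In that comparison 20.8% of all tested genes were called in either direction. There, 7 of the 29 other folding factors fell and 2 rose, and 8 of the 25 translocation and N-glycosylation genes fell and 3 rose. Leaving out 1 library gave fewer genes that fell in both lists. The folding factors that rose were Ero1l (0.38, adjusted p = 0.000403) and Dnajb9 (0.61, adjusted p = 0.0454), named after their values were seen. Against control BFP positive cells Dnajb9 did not pass (0.44, adjusted p = 0.3).

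**Figure D3:**
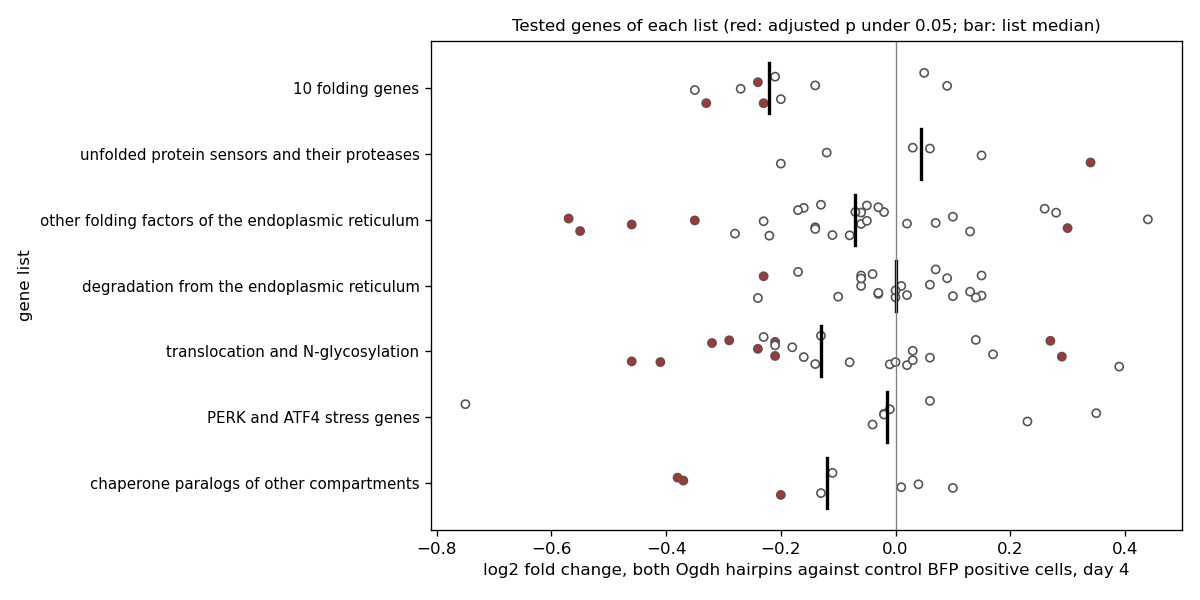
log2 fold change (x axis, both Ogdh hairpins against control BFP positive cells at day 4) of each tested gene of the 10 folding genes and of 6 related lists (y axis), with red points where the edgeR adjusted p was under 0.05 and a bar at each list's median. The medians run from -0.22 for the 10 folding genes to 0.04 for the sensors. The 2 red points farthest to the left are Prdx4 and Mogs.

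Control cells were then followed from day 0. These comparisons share the day 0 libraries and combine time, doxycycline and sorting, and the comparisons at day 4 share their control BFP positive libraries with the hairpin comparison. At day 2, Xbp1 and Hspa5 rose in both sorts, 2 of 10 genes each time, where 17.9% of all tested genes were called in BFP positive and 10.3% in BFP negative cells. Xbp1 had 60.2 and 58.6 CPM in BFP positive and 50.5 and 55.5 CPM in BFP negative cells, against 36.5 and 41.4 CPM at day 0. Every day 2 library was above both day 0 libraries. The log2 fold change was 0.62 ± 0.15 in BFP positive (edgeR adjusted p = 0.00142) and 0.46 ± 0.14 in BFP negative cells (edgeR adjusted p = 0.0217).

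Hspa5 had 568 and 547 CPM in BFP positive and 507 and 552 CPM in BFP negative cells at day 2, against 441 and 455 CPM at day 0. These were its 4 highest libraries. The log2 fold change was 0.32 ± 0.08 in BFP positive (edgeR adjusted p = 0.0016) and 0.24 ± 0.07 in BFP negative cells (edgeR adjusted p = 0.0243). The BFP positive call for Hspa5 held under every alternative, and that of Xbp1 was lost without BFP positive replicate 1 (0.59, adjusted p = 0.0567) and with all libraries thinned to the smallest total (0.59, adjusted p = 0.102). Both BFP negative calls were lost without either day 0 replicate and without BFP negative replicate 2, where Xbp1 was at 0.37 and Hspa5 at 0.17. The runs in which a call was lost also called fewer of all tested genes.

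Of the other 8 genes at day 2, Manf (0.30, adjusted p = 0.0682) and Hsp90b1 (0.25, adjusted p = 0.0564) came nearest to the threshold in BFP positive cells. Dnajb11, at 128.1 and 134.3 CPM in BFP positive cells, against 146.9 and 155.5 CPM at day 0, had a log2 fold change of -0.21 (adjusted p = 0.143). In BFP positive cells of day 2, 6 of 8 tested PERK and ATF4 stress genes rose, with a median log2 fold change of 0.70, among them Ddit4 (2.25 ± 0.16) and Trib3 (1.56 ± 0.22). Of 25 translocation and N-glycosylation genes, 8 rose and 0 fell. In this comparison 17.9% of all tested genes were called in either direction. Without BFP positive replicate 1 the counts that rose were 3 stress genes and 1 translocation gene, and without day 0 replicates 1 and 2 in turn 4 and 3 translocation genes rose. Of 6 sensors, edgeR and DESeq2 called 0, and 1 had an unadjusted p under 0.05. Over the 10791 tested genes DESeq2 called 817. The genes of these lists named for days 0 to 4 were chosen after their values were seen.

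At day 4 Xbp1 was still above day 0. It had 51.7 and 59.2 CPM in BFP positive and 49.6 and 52.1 CPM in BFP negative cells, and rose by 0.50 ± 0.14 (edgeR adjusted p = 0.0202) and 0.40 ± 0.13 (edgeR adjusted p = 0.041) on the log2 scale. In BFP positive cells it was the only call among the 10 genes, where 7.11% of all tested genes were called. In BFP negative cells, where 8.03% of all tested genes were called, Calr also changed: it fell to 584 and 572 CPM, against 678 and 664 CPM at day 0, by 0.22 ± 0.07 (edgeR adjusted p = 0.0455). Leaving out any of the 4 libraries ended the Xbp1 call in BFP positive cells (0.40 to 0.59) and the Calr call (-0.24 to -0.20), and the Xbp1 call in BFP negative cells was lost without either day 0 replicate (0.30 and 0.48) or BFP negative replicate 2 (0.34). In BFP positive cells each of these runs also called fewer of all tested genes. In BFP negative cells they did too, except without BFP negative replicate 1. Over all 8 sorted control libraries, Xbp1 and Hspa5 lay above both day 0 libraries, as did 7.11% of all tested genes, and Calr lay below both, as did 8.3%.

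From day 2 to day 4, the level of Sdf2l1 was lower at the later day in both sorts. It had 21.6 and 19.6 CPM in BFP positive and 20.9 and 19.2 CPM in BFP negative cells at day 4, against 30.6 and 27.9 CPM in BFP positive and 31.7 and 29.4 CPM in BFP negative cells at day 2. The day 4 and day 2 libraries did not overlap. The log2 fold change was -0.62 ± 0.15 in BFP negative cells (edgeR adjusted p = 0.00643), the single call among the 10 genes there (6.84% of all tested genes), and -0.51 ± 0.20 in BFP positive cells (edgeR adjusted p = 0.0737). The call in BFP negative cells was lost without replicate 2 of day 2 (-0.68) or of day 4 (-0.54). Both runs also called fewer of all tested genes.

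In BFP positive cells the single call of day 4 against day 2 was Herpud1 (11.9% of all tested genes were called). It had 64.5 and 71.8 CPM at day 4, against 88.1 and 87.2 CPM at day 2, a log2 fold change of -0.38 ± 0.12 (edgeR adjusted p = 0.0353). The call was lost when any of the 4 libraries was left out (-0.45 to -0.30), and each of those runs also called fewer of all tested genes. Hspa5 and Sdf2l1 were the genes whose 4 control libraries of day 4 all lay below all 4 of day 2, as for 7.72% of all tested genes. For Hspa5 the log2 fold change was -0.21 ± 0.08 in BFP positive (adjusted p = 0.0575) and -0.20 ± 0.07 in BFP negative cells (adjusted p = 0.0764). In the same BFP positive comparison 6 of 8 tested PERK and ATF4 stress genes fell, among them Trib3 (-1.59 ± 0.22) and Ddit4 (-1.27 ± 0.14), and 1 fell without BFP positive replicate 1 of day 2.

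Within control cells, BFP positive against BFP negative cells compare cells with and without the control hairpin induced. At day 2 edgeR called 0 of 10 genes (6.23% of all tested genes), 1 had an unadjusted p under 0.05 (18.9% of all tested genes) and DESeq2 called 0 (223 of the 10791 tested genes). That gene was Herpud1, with 88.1 and 87.2 CPM in BFP positive cells, against 75.4 and 73.7 CPM in BFP negative cells (log2 fold change 0.24 ± 0.12, adjusted p = 0.259). In the same comparison 5 of 8 tested PERK and ATF4 stress genes rose, with a median log2 fold change of 0.46, but 0 did without BFP positive replicate 1, 3 did without BFP negative replicate 2, and DESeq2 called 1. At day 4 edgeR called 0 of 10 genes (0.0741% of all tested genes), with 0 at an unadjusted p under 0.05 (4.61% of all tested genes) and 0 by DESeq2 (3 of the 10791 tested genes). The change of that difference between the days was called for 0 of 10 genes (0.658% of all tested genes), and DESeq2 called 0 (22 of the 10791 tested genes). Of the 10, 1 had an unadjusted p under 0.05 (9.8% of all tested genes), Herpud1 at -0.39 ± 0.16 (adjusted p = 0.372).

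**Figure D4:**
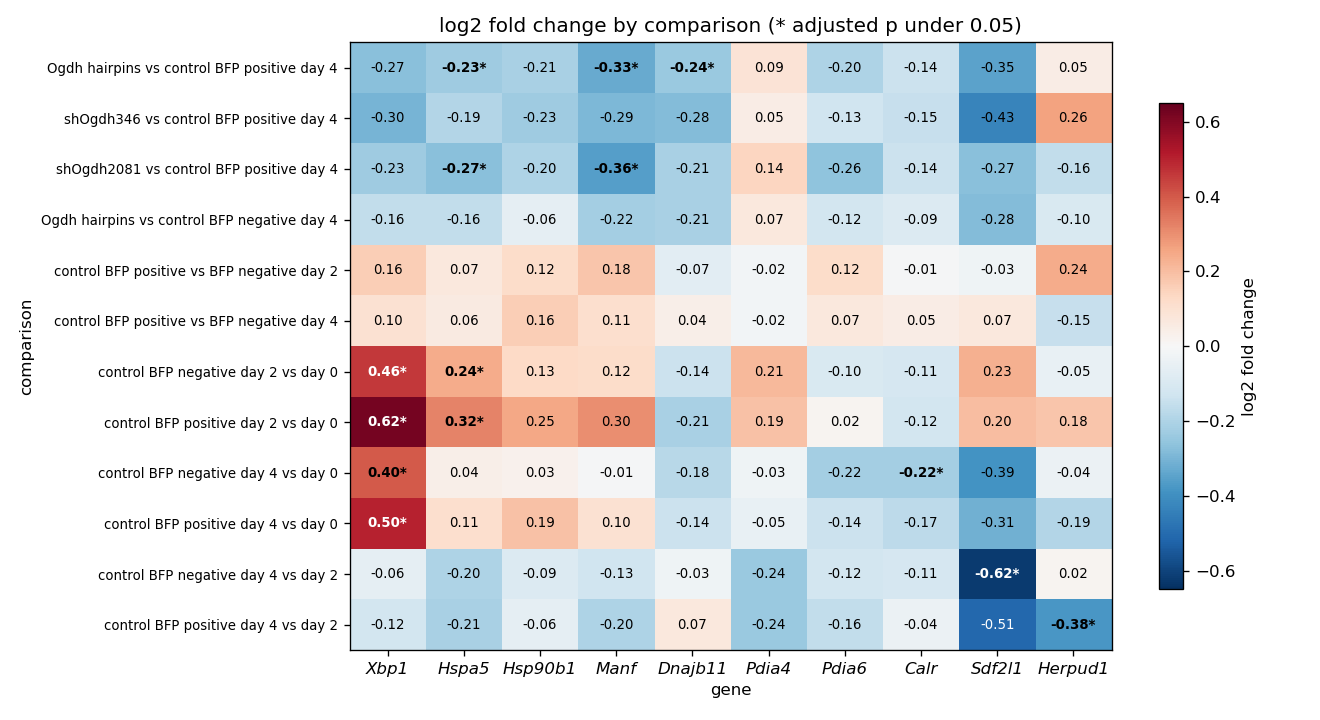
log2 fold change of each of the 10 genes (columns) in 12 comparisons (rows), colored from blue (lower in the group named first) to red (higher), with an asterisk and bold type where the edgeR adjusted p was under 0.05. Xbp1 is red in all 4 comparisons with day 0, at 0.40 to 0.62, and Sdf2l1 is blue in the comparisons of day 4 with day 2 and of the Ogdh hairpins with their controls.

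Ordered by group mean, the genes did not share 1 pattern. For Hspa5 the day 2 groups were highest and overlapped each other. Below them came control BFP positive cells of day 4, control BFP negative cells of day 4, day 0, shOgdh346 and shOgdh2081. Each of these lay below the group before without overlap, but a group holds 2 libraries and the order was read from the means. How many of all tested genes have such an order was not counted. Several of these steps did not pass when tested. Between the sorts of day 4 the Hspa5 log2 difference was 0.06 ± 0.07. From day 0 to control BFP negative cells of day 4 it was 0.04 ± 0.07 (edgeR adjusted p = 0.782). From shOgdh346 to shOgdh2081 it was -0.07 ± 0.08 (edgeR adjusted p = 0.924). Xbp1 was highest in control BFP positive cells of day 2 (59.4 ± 1.16 CPM, SD, n = 2) and lowest at day 0 (39.0 ± 3.43 CPM), and the only neighbours in its order that did not overlap were control BFP negative cells of day 4 and shOgdh346. Calr, Dnajb11 and Pdia6 were highest at day 0, while Hsp90b1 had no neighbouring groups without overlap. Across the 14 libraries, the Pearson correlation of a gene's log2 level with the mean of the other 9 ran from 0.40 for Pdia4 to 0.93 for Hspa5, and the median over the 45 pairs was 0.45. These correlations are descriptions, since the points share libraries and their depth.

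The tested genes outside the 10 whose log2 levels were most alike to the mean of the 10 were Ndufv2 (r = 0.99 over 14 libraries), Uqcr10 (0.98), Pdcd5, Syce2, Lap3, Ndufa4, Dctpp1 and Psmb1 (each 0.96). Ndufv2, Uqcr10 and Ndufa4 encode respiratory chain proteins and Psmb1 a proteasome subunit. They were picked as the highest of all tested genes, so the values have no test.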

How the data were processed

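Polyadenylated RNA of the 14 samples was sequenced, and 1 table of reads per gene was used. The authors deposited whole-number counts, not normalized, and beside them, in bases and so in another unit, each gene's transcript length, from which RPKM was computed here. The labels' protocols name Trimmomatic, STAR, HTSeq and a human build, whereas the submitters' processing notes name featureCounts 1.6.3, STAR 2.6.1a, Trimmomatic 0.36 and FastQC 0.11.5, with mouse builds. The table has mouse Ensembl identifiers, and the coordinates of all 10 genes equal those of GENCODE M21 on GRCm38.

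Genes were filtered with filterByExpr, scaled by TMM factors (0.968 to 1.013) and tested, two-sided, in R 4.3.3 by edgeR's quasi-likelihood method (version 4.0.16). A single fit held all 14 libraries with group as its term, and p-values were Benjamini-Hochberg adjusted over 10791 genes; a gene was called at an adjusted p under 0.05. Adjusted p-values are from edgeR unless DESeq2 (1.42.0) is named. A log2 fold change is given ± its SE. An exact permutation test of 2 against 2 libraries cannot go below p = 0.333. That limit does not apply to both Ogdh hairpins (4 libraries) against 2 control libraries. No permutation test was used for any comparison. The test was run on simulated counts first. Replicates differed by more than sampling noise (chi-square per degree of freedom 1.16 to 2.71). Groups and replicate numbers come from the titles. The 10 genes, the lists and the tests were chosen with earlier results of these data known, so no list is independent evidence. All 10 genes are named, as are, from each other list, up to 4 called genes with the largest change in the hairpin comparison, and the 8 genes most alike in pattern. Alternatives were RLE factors, no filter, replicate or library number blocks, DESeq2, thinning, RPKM, and leaving out libraries.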

Additional observations from a re-analysis of the deposited data

How the results depend on the processing

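Of the 10 genes, counts of calls were recomputed under each alternative. Over all tested genes, the hairpin comparison went from 1735 calls to 700 with DESeq2 and 680 after thinning. For shOgdh346 alone the calls went from 1206 to 406 and 377, and for shOgdh2081 alone from 1247 to 460 and 487. DESeq2 and thinning called fewer of all tested genes in every comparison. In the hairpin comparison each run without a library also did. For both Ogdh hairpins against control BFP positive cells (3 called), DESeq2 called 1 and libraries thinned to equal depth gave 0, and leaving out a library gave 0 to 3. For shOgdh2081 (2 called), no filter on low counts, the library number block and DESeq2 gave 1 each, thinning and leaving out the shallower library of each Ogdh hairpin gave 0, and leaving out a library gave 0 to 1. For shOgdh346 (0 called) the library number block gave 1. Against control BFP negative cells (0 called), no filter gave 2 and the library number block gave 1. Against day 0, control BFP negative cells of day 2 (2 called) had 0 without the filter, with DESeq2 and after thinning, and 0 to 2 when a library was left out. Control BFP positive cells of day 2 (2 called) had 1 to 3 when a library was left out. Control BFP negative cells of day 4 (2 called) had 0 without the filter and with the library number block, 1 with DESeq2, which gave no adjusted p for Xbp1, and 1 after thinning, and 0 to 1 when a library was left out. Control BFP positive cells of day 4 (1 called) had 0 without the filter, with DESeq2, after thinning and when any library was left out. For day 4 against day 2, BFP negative cells (1 called) had 0 with DESeq2 and 0 to 2 when a library was left out. BFP positive cells (1 called) had 2 with RLE factors, 0 without the filter, with DESeq2 and after thinning, and 0 when any library was left out. The cause of these shifts was not tested.

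The sign of 2 uncalled genes turned in the hairpin comparison. Pdia4 ran from -0.11 without control BFP positive replicate 1 to 0.28 without replicate 2. Herpud1 was at -0.143 after thinning, -0.029 without control BFP positive replicate 1, -0.067 without shOgdh2081 replicate 2 and 0.11 without control BFP positive replicate 2. RLE factors and DESeq2's size factors moved the median log2 fold change of all tested genes by at most 0.009 in any comparison.

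Replicate numbers were not taken as pairs: the correlation of same-numbered libraries' deviations ran from -0.082 to 0.148 over pairs of groups. With the replicate block, Hsp90b1 was also called in the hairpin comparison (-0.22, adjusted p = 0.0377), and BFP positive cells of day 4 against day 2 had 2 calls. The shallower libraries of the Ogdh hairpins held 913482 and 1159021 counts; without both of them, 1226 genes were called in the hairpin comparison, against 1735 with all libraries, and 461 without control BFP positive replicate 1.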
